A study of Mus musculus with 2 samples.

Results

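The genes described here are 10 regulators of the G1 phase of the cell cycle: the D-type cyclins Ccnd2 and Ccnd3, the cyclin-dependent kinases Cdk2, Cdk4 and Cdk6, the kinase inhibitors Cdkn1b, Cdkn2c and Cdkn2d, and the pocket proteins Rb1 and Rbl1. They were chosen by symbol as genes that control entry of T cells into the cell cycle, and every probe set annotated to exactly 1 of these symbols was taken. That gave 28 probe sets of the 34945 probe sets with a single gene symbol, and 10 of 18193 genes. The array carried between 1 probe set (Cdkn2c, Cdkn2d) and 7 probe sets (Ccnd2) per gene, and no probe set named a member together with another gene.

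Purified mouse primary T cells were stimulated with antibodies to CD3, part of the T cell receptor, and to CD28, a costimulatory receptor, and total RNA was hybridised to Affymetrix 3′ expression arrays. The control group was stimulated only, and the other group was stimulated in the same way and also received triptolide at 50 ng/ml, so both groups share the stimulation and the 18 h culture. There was 1 array per group, 2 in all, with no unstimulated sample among them. The labels give neither the strain, age and number of the mice nor the length of the triptolide exposure.

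Resting T cells sit outside the cycle. After stimulation, D-type cyclins accumulate and activate CDK4 and CDK6, cyclin E then activates CDK2, and these kinases phosphorylate RB and its relatives, which release E2F transcription factors to switch on genes for DNA synthesis. INK4 inhibitors (Cdkn2c, Cdkn2d) block CDK4 and CDK6, and the inhibitor encoded by Cdkn1b, p27, blocks CDK2 and is abundant in resting T cells. Triptolide is a plant diterpenoid that binds the XPB subunit of the transcription factor TFIIH.

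All values are MAS5 signals, which are linear intensities. A signal was taken as above background when it exceeded 118. This floor was the higher of the 2 arrays' 95th percentiles over 87 probe sets of chemosensory receptor genes. These probe sets had a median signal of 16.7 without and 25.6 with triptolide. Lower signals were set to the floor before a log2 ratio (triptolide over stimulated) was formed. Over all 45037 probe sets the median signal went from 95.5 without to 87.6 with triptolide. For the 10968 genes detected on at least 1 array the log2 ratios had a median of -0.16, a shift to bear in mind for each ratio below. As each group holds 1 array, the groups could not be tested against each other and the differences have no replicate check. Precision could be judged only from how far probe sets for 1 gene disagree, an SD of 0.488 on the log2 scale per probe set over 3733 genes, which corresponds to 0.69 for the difference between 2 probe sets. This SD leaves out any variation between cultures or mice. T cell markers were well above the floor, with all 10 of 10 on the array detected. Their summed signal was 63230 without and 43880 with triptolide. Among these 10, 8 had log2 ratios below 0, and 3 of the 8 (Cd2, Cd4 and Cd8a) were at least 2-fold lower. Cd3e (2881.2 to 3961.6) and Cd3g (3801.5 to 4293.0) were higher. B cell markers (6 of 7 detected, Pax5 below the floor on both arrays) summed to 5123 and 3233, or to 1641 and 1428 without Ighm. Of the 6 detected, 5 had log2 ratios below 0, and 2 of these (Cd22 and Blnk) were at least 2-fold lower. Cd79a alone was higher (349.3 to 673.7). Myeloid markers (5 of 8 detected, Itgam, Cd14 and Itgax below the floor) summed to 2481 and 3021. None of the detected ones was below 0, and Lyz2 was at least 2.19-fold higher (72.2, under the floor, to 259.5). The part of these other cells in the values below was not tested, and in a bulk sample fewer cells of a type and less RNA per cell cannot be told apart.

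Most G1 regulators differed by less than 2-fold between the arrays, a limit of size that does not show equal levels. Within it, differences reached 1.77-fold higher (Cdkn2c) and 1.70-fold lower (Ccnd3) with triptolide. All 10 genes were detected, and on the brightest probe set of each gene 9 of 10 lay within 2-fold. None was at least 2-fold higher with triptolide, beside 5.63% of all detected genes. Cdkn2d was the 1 gene at least 2-fold lower, beside 12.5% of all detected genes, so the count of members past 2-fold was near the background in both directions. The median log2 ratio of the 10 genes was -0.24, beside -0.16 for all detected genes. Of the 28 probe sets, 22 were above the floor on both arrays, 2 on the stimulated array alone and 4 on neither. Among the 22, the log2 ratio was above 0 in 10, of which 6 belonged to Ccnd2, and below 0 in 12. By gene, 3 members were above 0 and 7 below, beside 60.2% of all detected genes below 0.

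**Figure D1:**
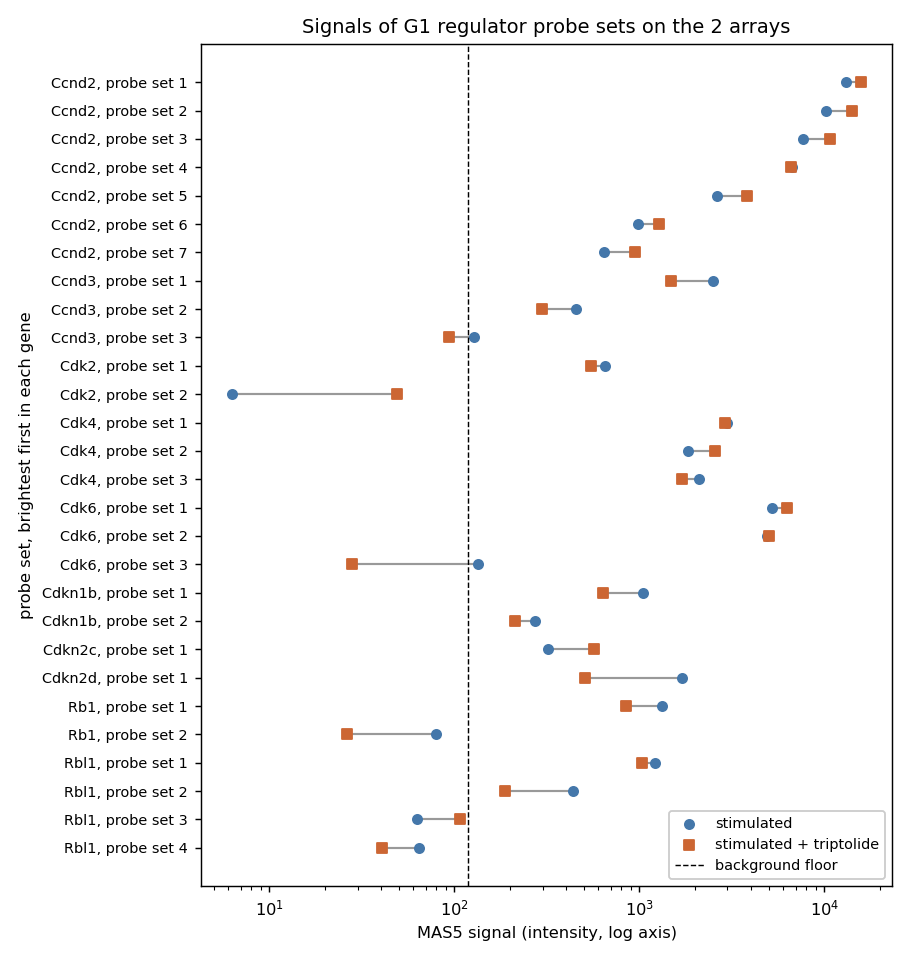
MAS5 signal (log axis) of each of the 28 probe sets of the 10 G1 regulators on the stimulated array (circles) and the triptolide array (squares), with the background floor of 118 as a dashed line. Cdkn2d has the widest gap among the brightest probe sets (1694.1 to 506.6), whereas 6 of the 7 Ccnd2 probe sets lie slightly to the right with triptolide.

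Among the cyclins, Ccnd2 and Ccnd3 went different ways. Ccnd2 encodes cyclin D2, which lymphocytes induce after antigen receptor signals. Its brightest probe set had a signal of 13159.9 without and 15808.5 with triptolide, a log2 ratio of 0.26. The next probe sets gave 10252.3 and 14063.6, then 7722.1 and 10707.7. The fourth gave 6705.4 and 6594.0. Of the dimmer probe sets, the first gave 2633.1 and 3837.6, the second 978.8 and 1271.0, and the third 645.0 and 944.6. Thus 6 of 7 probe sets were brighter with triptolide, and the log2 ratios ran from -0.02 to 0.55 with a median of 0.46 and an SD of 0.20 between probe sets. The identifiers of 3 of the 7 (log2 ratios 0.47, -0.02 and 0.54) mark probes that may match several transcripts, of the same gene or of other genes. These probe sets read the same 2 RNA samples and are not replicates.

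Ccnd3 encodes cyclin D3, the D-type cyclin that immature T cells need in order to expand. Its signal was 2514.0 without and 1477.2 with triptolide on the brightest probe set (log2 ratio -0.77, 1.70-fold lower), and 454.1 and 296.5 on the second (-0.61). The last, dim probe set had 127.8 without triptolide and was under the floor with it (93.6). All 3 probe sets were therefore dimmer with triptolide. On the brightest probe sets the log2 ratio of Ccnd2 exceeded that of Ccnd3 by 1.03, which is 1.49 times the SD expected for a difference between 2 probe sets. This difference does not depend on any factor that scales a whole array.

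The kinases had log2 ratios between -0.25 and 0.26 on their brightest probe sets. Cdk6, a partner of D-type cyclins, had signals of 5220.0 and 6267.5 (log2 ratio 0.26) on its brightest probe set and of 4901.6 and 5013.7 (0.03) on the second. The dimmest Cdk6 probe set was barely above the floor without triptolide (135.0) and under it with triptolide (27.9), a difference of at least 1.14-fold towards lower. Cdk4, the other cyclin D kinase, had signals of 2970.4 and 2900.7 (log2 ratio -0.03) on its brightest probe set, 1830.6 and 2559.9 (0.48) on another and 2112.8 and 1704.5 (-0.31) on the last. The first and second of these carry an identifier for probes that may match several transcripts, of the same gene or of other genes. The Cdk4 probe sets thus pointed both ways, and no direction is given for this gene. Cdk2, the kinase that cyclin E activates late in G1, had signals of 650.3 and 548.6 (log2 ratio -0.25), and its other probe set was below the floor on both arrays (6.3 and 49.2). Among all detected genes the log2 ratios of Cdk2, Cdk4 and Cdk6 lay at percentiles 44.7, 57.9 and 74.6, well inside the bulk of genes.

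The inhibitors held both ends of the range. Cdkn2d, an INK4 inhibitor of CDK4 and CDK6, had a signal of 1694.1 without and 506.6 with triptolide on its single probe set, 3.34-fold lower, with a log2 ratio of -1.74. This placed it at percentile 2.35 of all detected genes, 3.24 times the SD between probe sets away from their median. Cdkn2c, an INK4 inhibitor with the same targets, had 322.3 without and 570.5 with triptolide on its single probe set, a log2 ratio of 0.82 (1.77-fold higher), at percentile 91.9. The log2 ratios of these paralogues differed by 2.57, or 3.72 times the SD of a difference between 2 probe sets. It was the widest of the 6 pairwise differences computed among the members, with the pairs chosen after the values were known. No pair of members could be wider, because these genes hold the lowest and highest ratios, so the multiple of the SD is no test. Each of these INK4 genes rests on 1 probe set, so neither has a second measurement on the array.

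Cdkn1b, which encodes p27, had signals of 1043.9 and 638.5 on its brightest probe set (log2 ratio -0.71, 1.63-fold lower) and of 274.8 and 211.8 on the other (-0.38). Both Cdkn1b probe sets were dimmer with triptolide, by less than 2-fold. The related inhibitor Cdkn1a (p21), induced by p53, was on the other side, with 838.4 without and 4071.5 with triptolide (4.86-fold higher) and a second probe set at 1.60 on the log2 scale. Cdkn1c, Cdkn2a and Cdkn2b were below the floor on both arrays.

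The pocket proteins were dimmer with triptolide on every probe set above the floor, 1 for Rb1 and 2 for Rbl1. Rb1, the retinoblastoma gene, had signals of 1333.7 and 846.7 (log2 ratio -0.66, 1.58-fold lower), and its second probe set was below the floor on both arrays. Rbl1 encodes p107, a relative of RB that binds E2F4 and whose own gene is an E2F target. Its brightest probe set had 1217.1 and 1036.2, a log2 ratio of -0.23 close to the median of all detected genes (percentile 45.6). Another had 439.0 and 188.0 (-1.22, 2.34-fold lower). That probe set and the Cdkn2d probe set were the 2 member probe sets at least 2-fold lower, beside 12.8% of all 19209 detected probe sets, and none was at least 2-fold higher, beside 5.69%. The Rbl1 probe sets are annotated to different cDNA records, differed by more than 0.69, the SD of a difference between 2 probe sets, and leave the size of the difference for this gene undetermined. The remaining Rbl1 probe sets, with 62.7 and 107.0 and with 64.8 and 40.5, were below the floor. The remaining family member, Rbl2, named here for its role, had signals of 811.9 and 483.1 (log2 ratio -0.75).

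**Figure D2:**
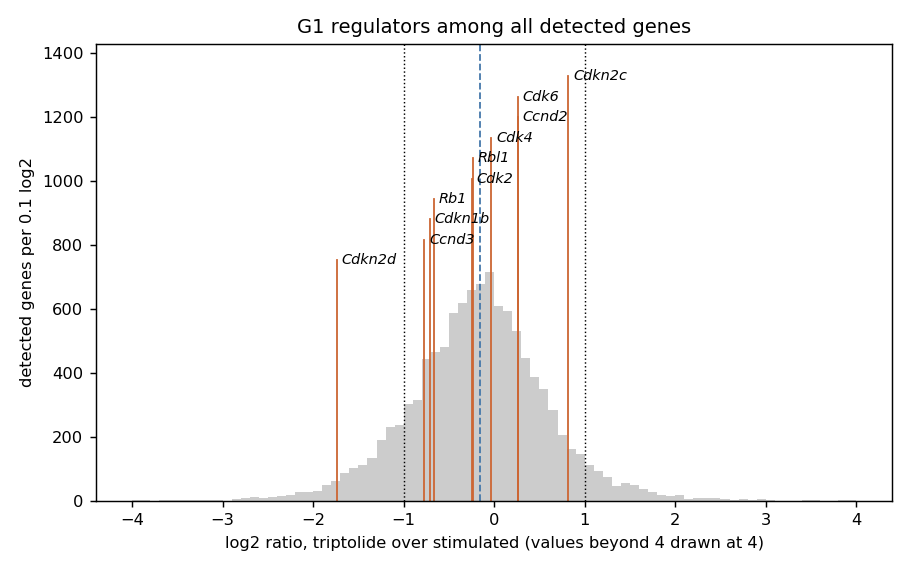
Histogram of log2 ratios (triptolide over stimulated, bins of 0.1) of the 10968 detected genes, with a vertical line for the brightest probe set of each of the 10 members; line heights carry no value. Dotted lines mark 2-fold, the dashed line is the median of all detected genes (-0.16), and Cdkn2d at -1.74 is the only member outside the dotted lines.

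Because pocket proteins act through E2F, promoters of the members were searched for the E2F-type motifs TTTCGCGC, TTTGGCGC, TTTCCCGC and TTTGCCGC on both strands, over 250 bases before to 50 after each start site in RefSeq (GRCm38.p6). Promoters were present for 8 of the 10 members, all but Ccnd2 and Rb1. A motif was found in 2 of these 8, Rbl1 and Cdk2, beside 2.60% of all 27025 genes with a promoter in the table and 10 of 21 genes of an E2F target list. The 100 bases before the start of Rbl1 (chr2:157204535-157204634, minus strand) and a 100-base stretch upstream of Cdk2 (chr10:128705122-128705221, minus strand) are shown because they hold the match, in capitals. The 100 bases before the start of Cdkn2d (chr9:21291210-21291309, minus strand) and of the upstream Cdkn2c promoter of the pair in the table (chr4:109666757-109666856, minus strand) are shown because these paralogues had the lowest and highest ratios, and they hold none of the 4 motifs.
Rbl1: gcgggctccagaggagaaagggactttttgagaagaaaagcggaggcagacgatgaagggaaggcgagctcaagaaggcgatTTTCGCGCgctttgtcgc
Cdk2: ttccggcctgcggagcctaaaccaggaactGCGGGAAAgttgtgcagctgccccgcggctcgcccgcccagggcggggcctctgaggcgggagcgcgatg
Cdkn2d: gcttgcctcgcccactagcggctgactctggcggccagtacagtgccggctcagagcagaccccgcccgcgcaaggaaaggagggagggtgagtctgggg
Cdkn2c: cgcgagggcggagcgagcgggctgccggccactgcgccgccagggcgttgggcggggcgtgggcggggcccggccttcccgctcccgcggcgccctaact
The Rbl1 match begins 18 bases before the start site and the Cdk2 match, read on the opposite strand, 140 bases before it. Both genes with a match had brightest-probe-set log2 ratios close to the median of all genes (-0.23 and -0.25). A match describes these letters only, and the arrays did not measure binding.

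Genes that act with the members were taken from 6 lists that share some genes, 73 different genes in all, of which 70 were on the array with a single symbol and 64 were detected. Their median log2 ratio was -0.29. Past 2-fold lay 3 genes on the higher and 5 on the lower side, beside the 5.63% and 12.5% of all detected genes given above. Among 16 other G1 and CDK regulators on the array, 11 were detected, 1 was at least 2-fold higher (Cdkn1a) and none lower, with a median of -0.28. The lowest was Cdc25b, a phosphatase that activates CDKs, at -0.97 (302.3 to 154.4). The cyclin E genes, named for their role as CDK2 partners, lay within 2-fold. For Ccne1 the brightest probe set gave a log2 ratio of -0.17 and the other one 0.72, and the single Ccne2 probe set gave 0.59. Ccnd1, the D-type cyclin of many other tissues, was below the floor on both arrays (85.4 and 91.6).

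The CDK-activating kinase phosphorylates CDK2, CDK4 and CDK6 and is also the kinase module of TFIIH. Its 3 subunits all had log2 ratios below 0, beside 60.2% of all detected genes. Mnat1, the assembly factor of this kinase, went from 713.7 to 168.8 (4.23-fold lower). Ccnh, the cyclin, went from 3200.1 to 1479.4 (2.16-fold lower, and -1.12 on its second probe set, with a dim further one at 74.1 and 135.4). The catalytic subunit Cdk7 had a log2 ratio of -0.21, near the median of all detected genes (-0.16).

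Turnover of p27 and cyclin D was represented by 15 detected genes with a median log2 ratio of -0.12, 2 of them past 2-fold on the higher side and 1 on the lower. Fbxo4, an F-box protein linked to cyclin D1 degradation, went from 129.9 to 388.7 (2.99-fold higher), starting close to the floor. Skp2, the F-box protein that targets p27, had 86.9 (under the floor) and 263.7 on its brightest probe set, at least 2.23-fold higher with triptolide, while another probe set had 154.7 and 141.0, so its direction is not settled. Cks1b, the cofactor SKP2 needs to bind p27, went from 4627.0 to 2159.5 (2.14-fold lower), with -0.60 on its second probe set. Gsk3b, a kinase that marks cyclin D1 for degradation, had its brightest probe set at -0.08 on the log2 scale and 1 dimmer one at -1.10 (346.7 to 162.0).

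E2F factors and their DP partners, 10 of 10 detected, lay within 2-fold on their brightest probe sets (median -0.26). E2f5, which pairs with pocket proteins, had a log2 ratio of -0.14 there (833.8 to 757.6), whereas its other probe sets were past 2-fold on the lower side, at -1.33 (499.7 to 198.5) and -1.27 (374.9 to 155.6). The highest was E2f7, a repressor, with signals of 74.1 (under the floor) and 195.9, at least 1.65-fold higher with triptolide. By brightest probe set the lowest was Tfdp2, a DP partner, at -0.71 (229.2 to 139.8). The remaining Tfdp2 probe sets had ratios of 0.54, 0.13 and 0.12, so its direction is not settled. Genes of the MuvB core and Mybl2, which join pocket proteins or follow them on cell cycle promoters, also lay within 2-fold on their brightest probe sets (6 detected, median -0.07). Lin52 was highest, at least 1.60-fold higher, and Mybl2 was lowest, at least 1.51-fold lower (179.1 to 76.9). A second Mybl2 probe set was above the floor with triptolide only (9.1 to 138.9), so the direction of this gene is not settled.

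Of 25 detected E2F target genes, 2 were lower by at least 2-fold and none was higher by as much, with a median of -0.33. On the brightest probe sets 20 of 25 log2 ratios were below 0, beside 60.2% of all detected genes. For Ccna2, Ccne1, Cdc45, Rrm2 and Mcm4 among the 20, another probe set above the floor on both arrays had a ratio above 0. The reverse held for Mcm2. Mybl2, whose direction is not settled, is also among the 20. Hells, a chromatin remodeller, went from 2156.9 to 821.3 (2.63-fold lower), with -0.49 on its second probe set and a dim further one at 67.5 and 140.1. Dscc1, a subunit of a clamp loader complex, went from 249.2 to under the floor, at least 2.10-fold lower. Orc1, a subunit of the origin recognition complex, was highest at 0.89 (342.7 to 636.6).

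**Figure D3:**
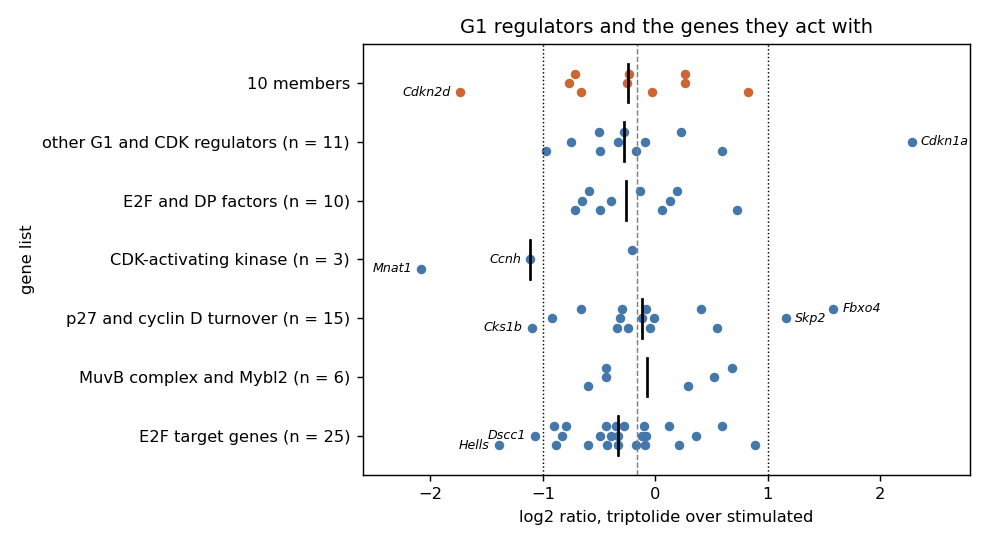
Log2 ratio (triptolide over stimulated) of each detected gene in the 10 members and in 6 lists of genes that act with them, 1 point per gene on its brightest probe set; black bars are list medians, dotted lines mark 2-fold, and the grey dashed line is the median of all detected genes (-0.16). Points outside 2-fold are named, with Cdkn1a (2.28) and Mnat1 (-2.08) farthest out; vertical jitter within a list carries no value.

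Each member's log2 ratio was recomputed under 8 other ways of treating the arrays. The log2 ratio of Cdkn2d ran from -1.90 to -1.54 and stayed past 2-fold in each of the 9 settings. Not all of these could move it. Its single probe set gave the deposited -1.74 with a lower floor, a higher floor and both other choices of probe sets. Cdkn2c ran from 0.66 to 1.05 and passed 2-fold after quantile normalization. Ccnd3 (-0.93 to -0.59), Cdkn1b (-0.87 to -0.51), Rb1 (-0.82 to -0.46) and Rbl1 (-0.73 to -0.05) were below 0 in all 9 settings. Ccnd2 (0.10 to 0.46) and Cdk6 (0.03 to 0.39) were above 0 in all 9. A lower floor, a higher floor and the removal of shared probe sets left the ratios of these genes as deposited. Those settings therefore say nothing about the sign. Cdk2 ran from -0.41 to -0.03 in the 8 settings that measured it. Cdk4 was below 0 in 7 of 9 settings and above 0 after centring and after quantile normalization. A ratio that keeps its sign across settings still comes from the same pair of arrays.

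**Figure D4:**
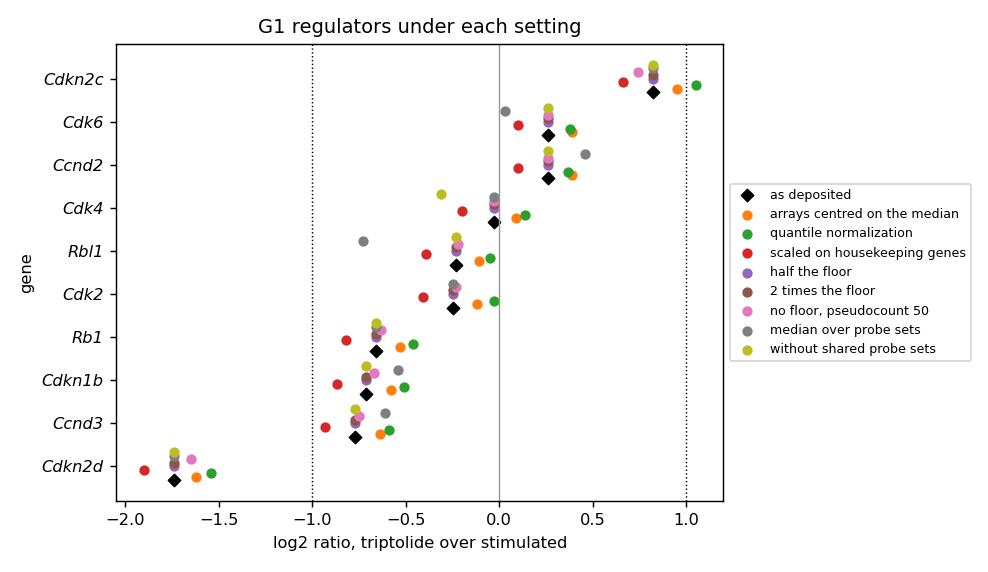
Log2 ratio (triptolide over stimulated) of the 10 members as deposited (black diamonds) and under 8 alternative settings (coloured points); dotted lines mark 2-fold. Cdkn2d stays left of -1 throughout, Cdkn2c crosses 1 in 1 setting, and Cdk4 is the only member with points on both sides of 0.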

How the data were processed

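The authors deposited linear signal intensities, 1 for each probe set on each array, made with MAS5 per the submitters' processing notes, which state neither version nor scaling. The first 100 probe sets had a 2% trimmed mean of 2000.0 on both arrays, so the arrays appear to have been scaled on these. Each log2 ratio is therefore relative to that scaling, and RNA per cell was not measured. Groups follow the source names.

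From these intensities, probe sets with 1 symbol in the platform annotation were kept, and symbols were updated through the RefSeq gene table (GRCm38.p6; 34741 matched). Signals were raised to the floor where lower, log2 ratios were formed, and the probe set with the highest mean of both floored log2 signals stood for its gene. "At least" marks a fold with 1 side at the floor. Genes were counted at 2-fold. With 1 array per group no p-value, SD or interval between groups exists, and the number of arrays limits the precision. Alternatives were 3 scalings, 3 treatments of low signals and 2 choices of probe sets. The calculation was tested on simulated data, where effects larger than 2-fold were set in bright genes only. Recovery of smaller effects or of dim genes was not tested. Members, lists and the rules for naming genes (all members; in the other lists every gene past 2-fold, the highest and the lowest; genes named for their role came later) were chosen with earlier results of these data known. Python 3.11.15, numpy 2.4.6 and pandas 2.3.3 were used.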

Additional observations from a re-analysis of the deposited data

How the results depend on the processing

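Of the counts and the median, 33 values under the alternatives stayed within 1.5-fold (counts) or 0.488 on the log2 scale (the median) of the reported ones and 7 counts moved further. The causes were not tested. The members' median log2 ratio was -0.24 as deposited, -0.04 after quantile normalization and -0.40 with housekeeping scaling, the ends of its range. After quantile normalization 1 member (Cdkn2c) was at least 2-fold higher, beside 8.12% of all detected genes. As deposited it was 0, beside 5.63%. The count of lower members was 1 in every setting. For the other G1 and S phase entry genes, the count of lower genes was 5 as deposited, 2 after centring on the median, 2 after quantile normalization, 9 when scaled on the median of 10 housekeeping genes, 3 with the median over probe sets and 3 without shared probe sets. The count of higher genes was 3 as deposited and 1 with the floor doubled to 237, beside 5.63% and 5.15% of all detected genes. Over all detected genes the log2 ratios had a median of -0.05 after centring, 0.01 after quantile normalization and -0.30 with housekeeping scaling. The share of all detected genes at least 2-fold lower was 9.90%, 8.42% and 16.5% in these settings. That share was 12.5% as deposited, 10.4% with the median over probe sets and 12.3% without shared probe sets. The log2 ratio of Rbl1 moved to -0.73 with the median over its probe sets. Without shared probe sets Cdk2 had no detected probe set, so it had no value there. With 1 array per group no array could be left out. No paired analysis was possible because each group has 1 array. Signals near the floor limit what can be read from Fbxo4, Skp2, Dscc1, E2f7, Lin52 and Mybl2.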
